A study of Drosophila melanogaster with 26 samples.

Results

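A set of 23 Drosophila genes was described, each still known by a computed gene (CG) number and each low in embryos of both zld mutants. Members were chosen by 3 conditions. The symbol was CG followed by digits, the mean was at least 5 TPM in both wild-type groups, and the mean over all libraries of each mutant was no more than one part in 3 of the smaller wild-type group mean. TPM is a level corrected for transcript length and scaled to 1000000 in each library. Of the 14220 gene symbols listed, 6197 had this form of name, and 1726 of those reached 5 TPM in both wild-type groups.

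The levels came from RNA sequencing of embryos staged to nuclear cycles 13 to 14, with 3 embryos pooled in each of the 26 libraries. Zld294 embryos gave 8 libraries, all labelled day 3. The other mutant, with genotype label mNG-ZF5 GLC and called Zf5 here, gave 6 libraries on day 2 and 3 on day 1, and by the stated design it lacks zinc finger 5 of Zelda. Wild type (WT) was H2B-EGFP in the 6 libraries of day 2 and sfGFP-ZLD in the 3 libraries of day 1. The labels do not say what GLC stands for, which promoters drive the fluorescent tags, or how the Zld294 embryos were obtained. The WT genotype label changed with the day and Zld294 has a day of its own, so day and genotype cannot be told apart in those comparisons. Nothing in the labels names separate crosses or collections, so p-values measure the spread between these libraries, which may be technical.

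Zelda, the protein made from zld, is a zinc finger transcription factor that mothers load into the egg. It binds short TAGteam motifs near genes that switch on early, opens the chromatin there and lets other patterning factors bind. Embryos that lack it fail to activate many of the first zygotic genes, among them genes for cellularization, sex determination and the dorsoventral and segmental axes. Many early zygotic genes are short and have few introns, a form suited to the brief interphases before cycle 14.

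The number of reads behind the TPM values is unknown. Between 8139 and 12165 genes were above 0 in a library. The zld transcript averaged 8.77 ± 15.5 TPM in Zld294 (SD, n = 8) and 585 ± 261 TPM in Zf5 (SD, n = 9), against 1024 ± 185 TPM in WT (SD, n = 9). One Zld294 library reached 43.2 TPM and the lowest was at 0.0873 TPM. Stage was described with lists of known genes, each scored as the mean log2(TPM + 1) of its genes. The early zygotic score spanned 1.15 to 3.85 in Zld294 and 1.28 to 5.49 in Zf5, against 2.05 to 6.69 in WT. The maternal score ran from 7.43 to 8.07 in Zld294 and 5.36 to 8.04 in Zf5, against 6.26 to 7.88 in WT. The score of late cycle 14 genes ran from 1.17 to 2.33 in Zld294 and 1.05 to 2.93 in Zf5, against 1.13 to 1.82 in WT. The early and late scores of replicates 1 and 3 of Zf5 day 2 were the lowest of the Zf5 libraries, and the tests and shares that turn on them are also given without them.

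The label of lost genes fits part of the set. The mean was under 1 TPM in both mutants for 12 of the 23 genes, while CG7271 still reached 85.8 TPM in a mutant library. Because these values chose the members, they are given as a description with no test. The share left, which is the mutant mean as a percent of the smaller WT group mean, was at most 1% for 11 genes in Zld294 and for 7 genes in Zf5. It was at most 5% for 13 genes in each mutant and at most 20% for all 23 genes in Zld294 and 19 genes in Zf5. The rule set means and not single libraries, but means this far apart favour libraries that do not overlap. The counts that follow are thus also a description, and the share over all genes is no test of them. Every Zld294 library was below every WT library for 16 of 23 members, and this was so for 2.27% of the 8200 genes tested. Every Zf5 library was below every WT library for 11 of 23 members and 0.573% of the genes tested. Without replicate 3 of WT day 2, the lowest WT library for 20 members, the counts were 19 for Zld294 and 14 for Zf5. The shares of the genes tested were then 2.66% for Zld294 and 0.671% for Zf5. In pooled embryos, fewer cells that express a gene and less of its RNA per cell cannot be told apart.

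**Figure D1:**
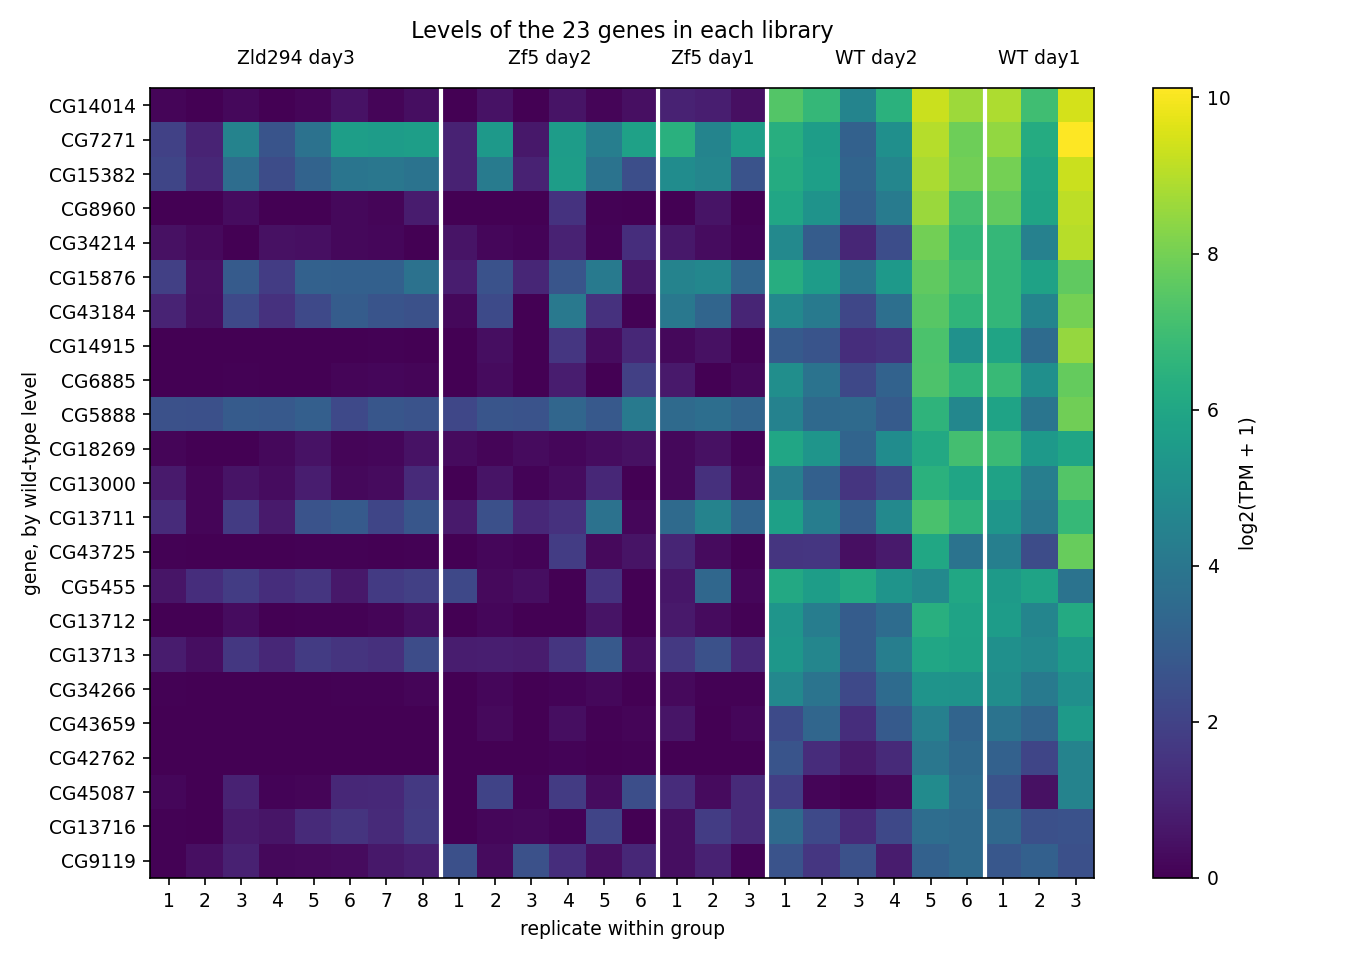
Level of each gene in each library as log2(TPM + 1), with genes ordered by WT level down the page and libraries grouped by genotype and day across it. The 9 WT columns are bright for most genes and darkest in replicate 3 of day 2, and the 17 mutant columns are dark except at CG7271, CG15382, CG15876 and a few others.

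The gene with the highest WT level was CG14014, which has 1 exon and lies on chromosome 2L (5549709 to 5550835, minus strand, BDGP6.54). Its level in Zld294 ran from 0 to 0.427 TPM with a median of 0.0997 TPM, and in Zf5 from 0 to 0.974 TPM with a median of 0.340 TPM. In WT it ran from 22.9 to 639 TPM on day 2, with a median of 138 TPM, and was 462, 129 and 714 TPM on day 1. No mutant library reached 1 TPM and no WT library was under 20 TPM, so the groups did not overlap. The share left was 0.0619% in Zld294 and 0.159% in Zf5.

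CG8960, on chromosome 3L (2197013 to 2198089, plus strand), was listed at 0 in 4 of 8 Zld294 libraries and in 6 of 9 Zf5 libraries. The highest mutant values were 0.711 TPM in replicate 8 of Zld294 and 1.80 TPM in replicate 4 of Zf5 day 2. WT held 7.61 to 384 TPM on day 2, with a median of 48.9 TPM, and 208, 58.4 and 548 TPM on day 1. The mutants did not overlap WT, and the share left was 0.141% in Zld294 and 0.234% in Zf5.

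CG14915 was at 0 in 7 of 8 Zld294 libraries and at 0.0466 TPM in the other, and ran from 0 to 2.03 TPM in Zf5 with a median of 0.276 TPM. In WT it ran from 1.52 to 151 TPM on day 2, with a median of 5.75 TPM, and was 58.9, 10.6 and 369 TPM on day 1. All Zld294 libraries lay below WT, whereas the highest Zf5 library lay above the lowest WT libraries. CG34214 had the same form. Its range was 0 to 0.381 TPM in Zld294 and 0.0688 to 1.49 TPM in Zf5, against 1.12 to 249 TPM in WT day 2 and 106, 21.1 and 519 TPM in WT day 1. CG6885 ran from 0 to 0.143 TPM in Zld294 and 0 to 2.81 TPM in Zf5, against 3.55 to 156 TPM in WT day 2 and 111, 31.5 and 211 TPM in WT day 1, with no overlap.

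CG18269 averaged 0.164 ± 0.156 TPM in Zld294 and 0.217 ± 0.113 TPM in Zf5, against 56.5 ± 43.8 TPM in WT day 2 and 74.0 ± 40.0 TPM in WT day 1 (SD, n = 8, 9, 6 and 3). CG13000, the member on chromosome X, averaged 0.493 ± 0.404 TPM in Zld294 and 0.441 ± 0.585 TPM in Zf5, against 30.2 ± 35.8 TPM in WT day 2 and 81.5 ± 79.0 TPM in WT day 1. Both were lower in every mutant library than in every WT library. CG43659 and CG42762 were listed at 0 in all 8 Zld294 libraries, and their highest Zf5 values were 0.507 TPM and 0.0635 TPM. Their WT means were 8.27 TPM on day 2 and 22.2 TPM on day 1 for CG43659, and 5.61 TPM on day 2 and 11.0 TPM on day 1 for CG42762.

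**Figure D2:**
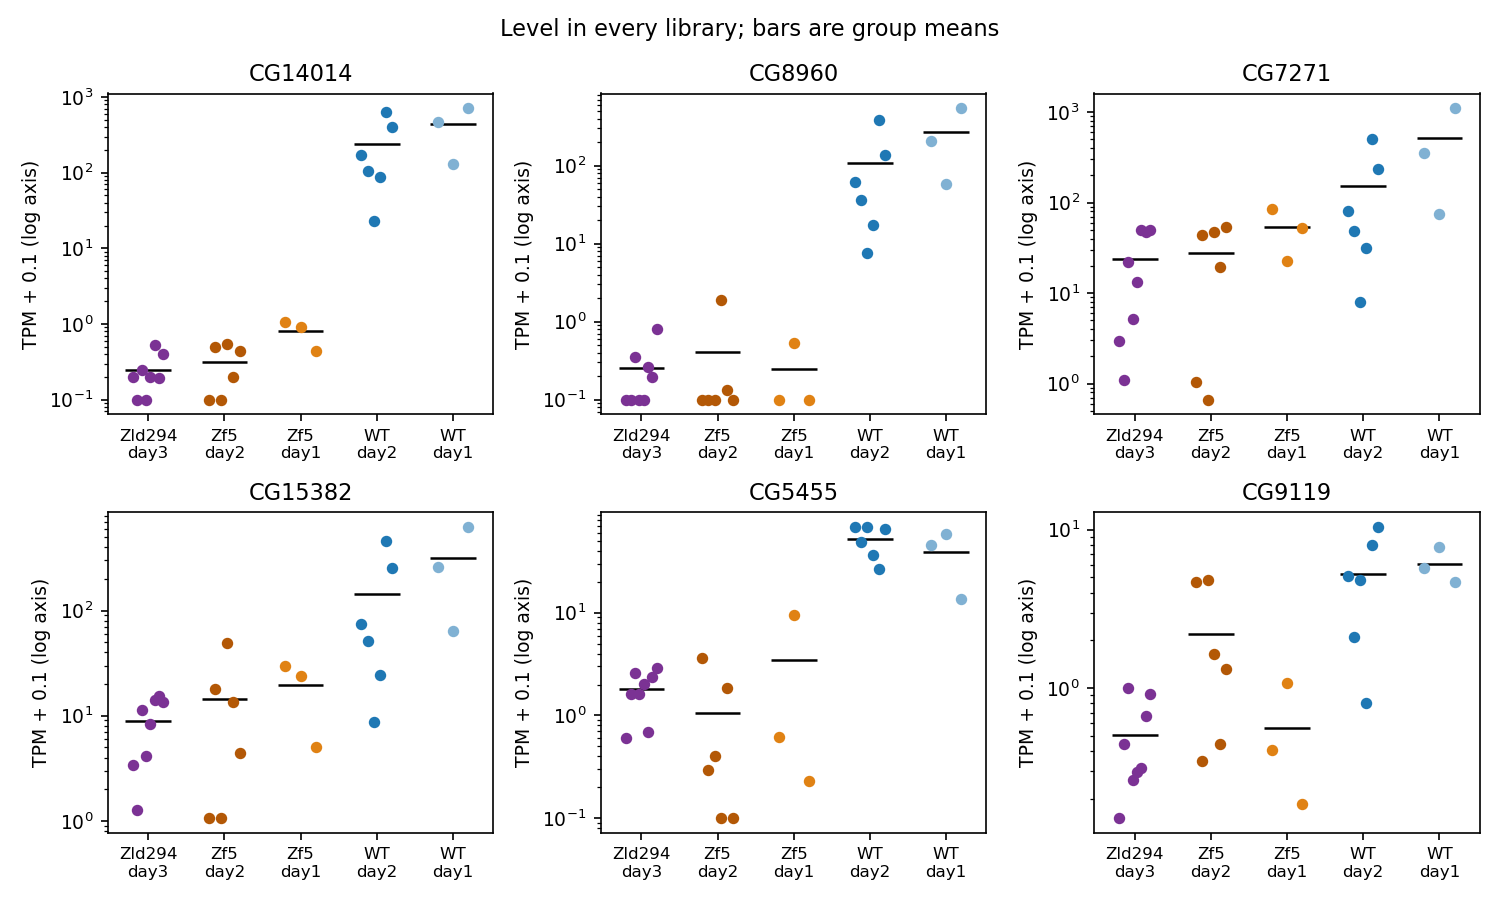
Level in TPM (plus 0.1, log axis) of 6 genes in every library, with points for libraries and bars for group means. CG14014 and CG8960 lie near 0 in all mutant libraries, CG7271 and CG15382 overlap between mutants and WT, and CG5455 and CG9119 are spread among the Zf5 libraries.

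Other members had lower means in the mutants but were detected there in most libraries. CG7271, the second highest in WT (chromosome 3L, 18588759 to 18590165, plus strand, 1 exon), ran from 1.0 to 50.3 TPM in Zld294 with a median of 17.5 TPM. In Zf5 it ran from 0.564 to 85.8 TPM with a median of 43.5 TPM. WT held 7.89 to 509 TPM on day 2, with a median of 64.0 TPM, and 357, 74.1 and 1110 TPM on day 1. The mutants and WT overlapped, replicates 1 and 3 of Zf5 day 2 were the lowest of all, and the share left was 15.7% in Zld294 and 23.7% in Zf5, or 30.3% in Zf5 without those replicates.

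CG15382, on chromosome 2L (2155753 to 2156790, plus strand), ran from 1.17 to 15.2 TPM in Zld294 with a median of 9.72 TPM. In Zf5 it ran from 0.960 to 49.2 TPM with a median of 13.5 TPM. In WT it ran from 8.53 to 455 TPM on day 2, with a median of 63.0 TPM, and was 259, 63.2 and 628 TPM on day 1. The overlap came from the lowest WT day 2 libraries, and the share left was 6.14% in Zld294 and 11.1% in Zf5. Exons of CG15382 overlap those of aop, the ETS-domain repressor gene yan, on the other strand. The use of strand in quantification is not given in the sources used here, so reads of the 2 genes may be mixed. The level of aop itself was 198 TPM in Zld294 and 157 TPM in Zf5, against 213 TPM in WT day 2 and 231 TPM in WT day 1.

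CG15876 had 0.342 to 13.1 TPM in Zld294 and 0.578 to 24.5 TPM in Zf5, against 14.1 to 199 TPM in WT day 2 and 102, 56.4 and 198 TPM in WT day 1. Zld294 lay just below WT and the highest Zf5 libraries crossed into its range. CG43184 averaged 3.39 ± 2.23 TPM in Zld294 and 5.28 ± 6.65 TPM in Zf5, against 55.4 ± 68.4 TPM in WT day 2 and 127 ± 119 TPM in WT day 1. CG5888 had the highest share left in both mutants. It ran from 3.68 to 7.43 TPM in Zld294 and from 3.39 to 17.0 TPM in Zf5, against 6.55 to 94.9 TPM in WT day 2 and 57.4, 14.1 and 242 TPM in WT day 1. Its share left was 19.4% in Zld294 and 30.5% in Zf5, and 34.9% in Zf5 without replicates 1 and 3 of day 2, which is past the limit of the rule.

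**Figure D3:**
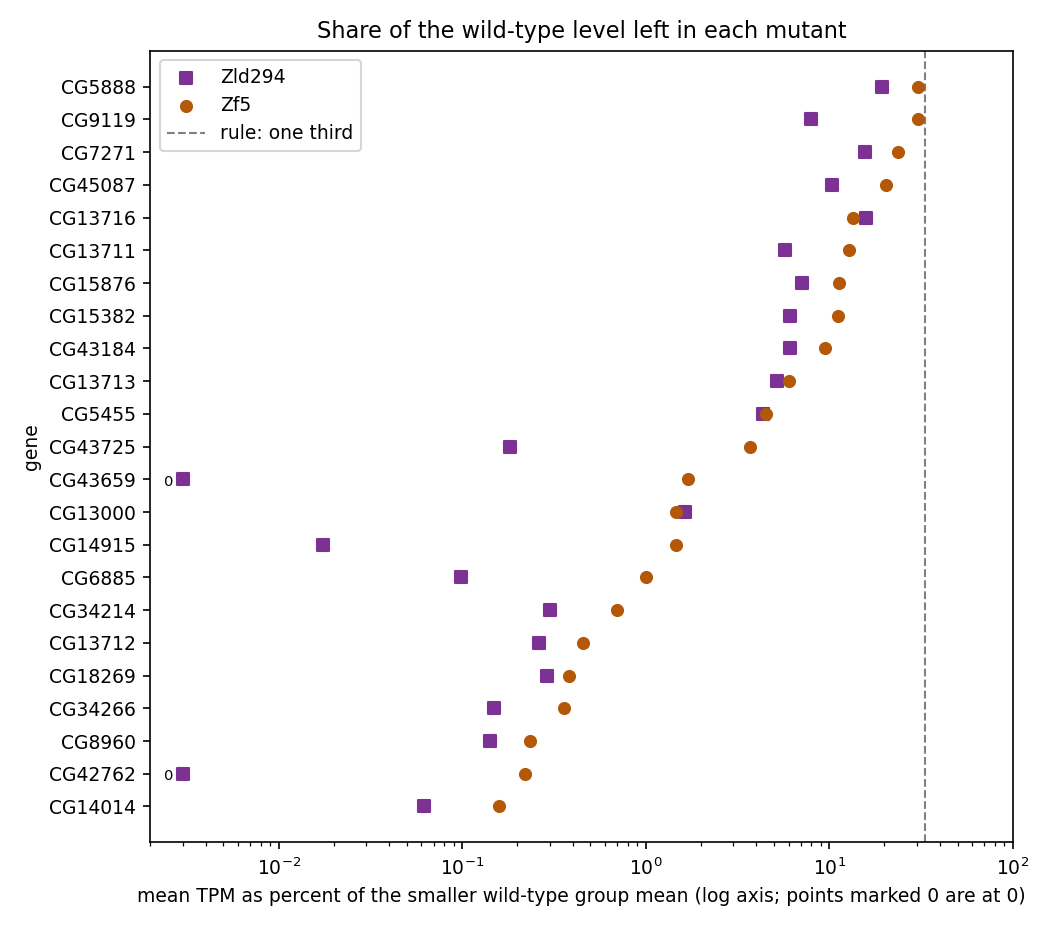
Mean level in each mutant as a percent of the smaller WT group mean (log axis), 1 line per gene, ordered by the share left in Zf5, with the limit of the rule dashed. The 2 points marked 0 are genes listed at 0 in all Zld294 libraries, and CG5888, CG9119 and CG7271 lie closest to the limit.

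At the limit of the rule, the 3 members closest to it were CG7271, CG9119 and CG5888, with 23.7%, 30.3% and 30.5% left in Zf5. Just outside were CG12581 with 5.77% left in Zld294 and 35.0% in Zf5, CG14937 with 3.96% in Zld294 and 35.4% in Zf5, and CG32809 with 39.1% in Zld294 and 34.5% in Zf5. There is thus no gap in the Zf5 values at the limit.

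CG5455 and CG9119 differed from the rest in which libraries were high. CG5455, a gene of 7 exons on chromosome 3R (26461527 to 26470008, plus strand), ran from 0.507 to 2.77 TPM in Zld294 with a median of 1.72 TPM. In Zf5 it ran from 0 to 9.37 TPM with a median of 0.306 TPM. In WT it ran from 26.5 to 68.9 TPM on day 2, with a median of 56.6 TPM, and was 45.3, 57.7 and 13.4 TPM on day 1. Replicate 3 of WT day 2, the lowest WT library for 20 other members, was its highest, and replicate 3 of WT day 1, the highest for 13 other members, was its lowest. All mutant libraries were below all WT libraries.

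CG9119, on chromosome 3L (1203316 to 1204795, minus strand), ran from 0.0507 to 0.897 TPM in Zld294 and from 0.0850 to 4.73 TPM in Zf5. WT held 0.710 to 10.4 TPM on day 2 and 5.65, 7.68 and 4.59 TPM on day 1. Its highest Zf5 libraries were replicates 1 and 3 of day 2, with 4.55 and 4.73 TPM, which were the lowest Zf5 libraries for CG7271 and CG15382. Without these the share left in Zf5 was 13.1%, against 30.3% with them.

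CG45087 cannot be told apart from Pepck1, a gluconeogenic phosphoenolpyruvate carboxykinase gene on the same strand whose exons overlap it. Their deposited values were identical in all 26 libraries. The shared level ran from 0 to 2.23 TPM in Zld294 and 0 to 4.35 TPM in Zf5, against 0 to 28.5 TPM in WT day 2 and 5.08, 0.364 and 22.0 TPM in WT day 1. Mutant and WT libraries overlapped over much of the range. Of the other 22 members, 3 have exons that overlap another gene on the other strand, namely CG15382, CG34214 (with ND-19, a respiratory chain subunit gene) and CG14915 (with an antisense RNA gene).

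The levels in WT varied widely among libraries of 1 group. Summed over the 23 genes, the level was 9.92 to 107 TPM in Zld294 and 15.4 to 183 TPM in Zf5, against 192 to 3673 TPM in WT day 2 and 711 to 5607 TPM in WT day 1. The summed ranges did not overlap at all for Zld294, and the highest Zf5 library was just below the lowest WT library. Replicates 5 and 6 were the highest pair of WT day 2 for 20 of 23 genes. The summed level and the early zygotic score moved together over the WT libraries, from 192 TPM at a score of 2.05 to 5607 TPM at 6.69.

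Libraries with like early zygotic scores were set side by side as a description. Replicate 8 of Zld294 had a score of 3.85 and a summed level of 107 TPM, against 3.84 and 711 TPM in replicate 2 of WT day 1. Replicate 4 of Zf5 day 2 had 5.49 and 144 TPM, against 5.99 and 3673 TPM in replicate 5 of WT day 2 and 5.21 and 2252 TPM in replicate 1 of WT day 1. Replicate 2 of Zf5 day 1 had 4.05 and 135 TPM, against 3.99 and 909 TPM in replicate 1 of WT day 2. The summed level is made of the values that chose the members. Some genes of the score were themselves lower in the mutants, so like scores do not show like stages. The late cycle 14 score was 2.32 in replicate 8 of Zld294, 2.93 in replicate 4 of Zf5 day 2 and 2.48 in replicate 2 of Zf5 day 1. Each of these was above the highest WT score, 1.82, and the part of stage in the levels was not tested.

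**Figure D4:**
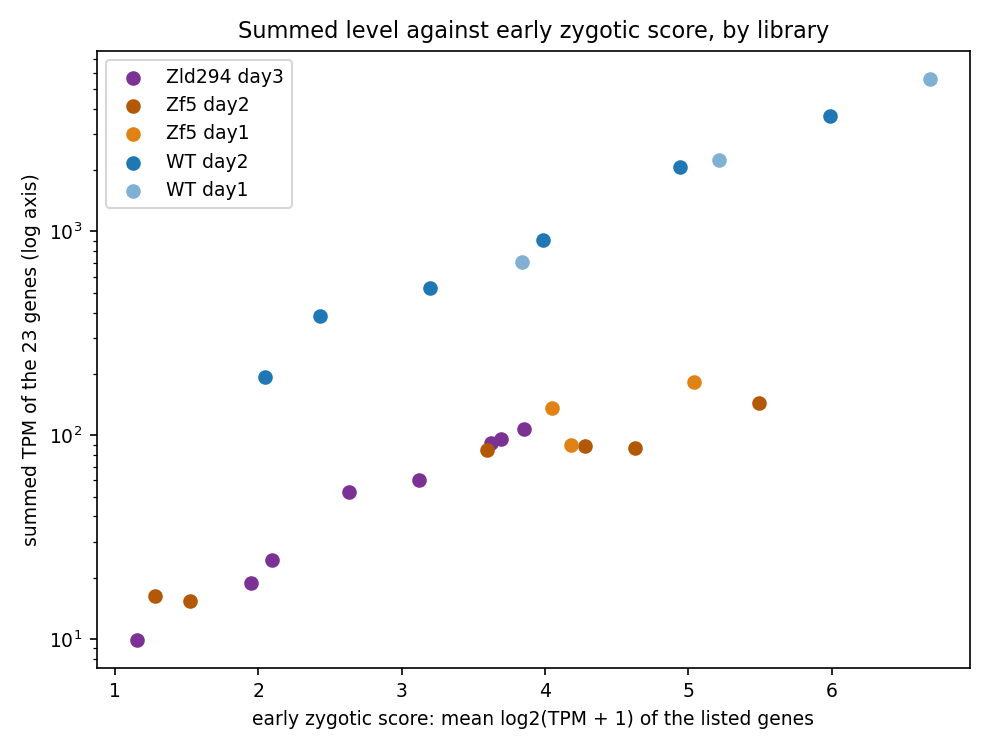
Summed level of the 23 genes (TPM, log axis) against the early zygotic score (mean log2(TPM + 1) of the listed genes), 1 point per library, coloured by group. The mutant points lie between 9.92 and 183 TPM and the WT points between 192 and 5607 TPM, over overlapping ranges of the score.

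The difference between the 2 mutants was not used by the rule, but both were bounded from above by it. Only 12 of the 23 genes had at least 1 TPM in at least 3 of the 17 mutant libraries. The other 11 passed the filter on low values through WT alone and lie near 0 in both mutants, where log2(TPM + 1) leaves little room for a difference. With limma across 8200 genes and 8 Zld294 and 9 Zf5 libraries, no member passed an adjusted p of 0.05, where 477 genes (5.82%) of the table did. The lowest limma adjusted p among the 12 detected genes was 0.19, with 0 of 12 under an unadjusted p of 0.05. Of the 11 others, CG14915 was under the unadjusted threshold, as were 2568 of the 8200 genes tested.

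This outcome depended on replicates 1 and 3 of Zf5 day 2. Without both, limma called 4828 genes (58.9%) between Zld294 and Zf5, and 4 of 23 members, all lower in Zld294. CG5888 averaged 5.45 TPM in Zld294 and 9.77 TPM in the remaining 7 Zf5 libraries, a log2 difference of -0.69 with a standard error of 0.22 and a limma adjusted p of 0.015. In that setting CG5888 kept 34.9% in Zf5 and was past the limit of the rule. CG14915, CG43725 and CG14014 were the others, with limma adjusted p of 0.022, 0.043 and 0.044. All 3 had means under 1 TPM in both mutants and belong to the 11 genes that passed the filter through WT alone. Their calls rest on values near 0 and are not read as a difference between the mutants. For CG7271 the log2 difference was -1.56 without those replicates, with a limma adjusted p of 0.058.

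With all libraries the mean was higher in Zf5 than in Zld294 for 21 of 23 genes, which include the 11 near 0 in both mutants. The log2 difference, Zld294 over Zf5, was below 0 for 19 of the 23, beside 3842 of the 8200 genes tested. Its median was -0.19 for members, beside 0.05 over all genes. Of the 53 named early zygotic genes set beside the members below, 47 were below 0, with a median of -1.03. The member median was -0.06 without replicate 2 of Zld294, -0.12 without replicate 1 of Zf5 day 1 and -0.41 with a pseudocount of 0.1 TPM. The 95% interval of the log2 difference ran from -2.43 to 1.36 for CG7271, from -1.71 to 1.04 for CG15382 and from -1.21 to 1.40 for CG43184.

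The rule used neither the difference between days in WT nor that in Zf5. In WT, the mean was lower on day 2 than on day 1 for 19 of 23 genes. The log2 difference ran from -2.54 to 0.56 with a median of -1.26, beside 0.12 over all genes. It was below 0 for 22 of 23 members, beside 3208 of the 8200 genes tested. Of the 53 named early zygotic genes set beside the members below, 51 were below 0, with a median of -1.54. The member median was -0.67 without replicate 3 of WT day 1 and -0.73 without replicate 3 of WT day 2, and -1.91 with a replicate block. No member passed an adjusted p of 0.05 in limma, the lowest adjusted p was 0.33, and 0 of 23 were under an unadjusted p of 0.05. Of all genes tested, 585 (7.13%) passed and 1788 were under the unadjusted threshold. Standard errors of 0.48 to 1.61 went with the member differences, and no interval lay within 1 either way. CG14915 had the largest difference, with 33.3 ± 59.1 TPM on day 2 and 146 ± 194 TPM on day 1 (SD, n = 6 and 3).

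In Zf5, where the genotype label was the same on both days, no gene of the table passed (0%), and 386 genes were under an unadjusted p of 0.05 in limma. Of the members, 0 passed and 2 were under the unadjusted threshold. CG15876 averaged 4.93 TPM on day 2 and 18.5 TPM on day 1, a log2 difference of -2.18 with a standard error of 0.81. CG13711 averaged 3.57 TPM on day 2 and 13.6 TPM on day 1, a log2 difference of -2.13 with a standard error of 0.76. The limma adjusted p was 0.864 for both. Without replicates 1 and 3 of day 2 the differences were -1.66 for CG15876 and -1.78 for CG13711, neither under an unadjusted p of 0.05, and again no gene passed. Both genes lie in the same interval of chromosome 3L.

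That interval, from 4634436 to 4758708 on chromosome 3L (124273 bases, BDGP6.54), holds 6 of the 23 genes, CG13716, CG34266, CG15876, CG13713, CG13712 and CG13711. All 6 have a single exon. The ends of the interval were set by the outermost members, and larger genes that reach past them were not counted. Of the 23 members, 10 lie inside the span of another gene. Of the 11 listed genes that lie wholly inside the interval, 6 had means of at least 5 TPM in both WT groups. These 6 are the members, and the counts do not cover every gene expressed in the region. The other 5 were low in WT. Among them CG12493 averaged 1.70 TPM in Zld294 and 4.33 TPM in Zf5, against 0.483 TPM in WT day 2 and 0.760 TPM in WT day 1.

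Within the interval CG34266 had the largest proportional reduction in both mutants, with 0.0312 TPM in Zld294 and 0.0755 TPM in Zf5, against 21.0 TPM in WT day 2 and 26.3 TPM in WT day 1. CG13712 followed with 0.0937 TPM in Zld294 and 0.162 TPM in Zf5, against 35.9 TPM in WT day 2 and 47.2 TPM in WT day 1. These 2 genes and CG13713 were lower in every mutant library than in every WT library. CG13716, the lowest of the 6 in WT, kept 15.9% in Zld294 and 13.4% in Zf5. CG13711 kept 5.74% in Zld294 and 12.8% in Zf5, and CG13713 kept 5.19% in Zld294 and 6.01% in Zf5. Over the interval the share left thus spanned 0.149% to 15.9% in Zld294 and 0.360% to 13.4% in Zf5.

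Replicate 5 was the highest Zf5 day 2 library for all 6 genes of the interval, where they summed to 39.9 TPM, against 1.06 to 10.7 TPM in the other libraries of that group. Of the 17 members elsewhere, replicate 5 was the highest of Zf5 day 2 for 1. In WT day 2, replicate 5 was the highest and replicate 3 the lowest for all 6. Of the 17 members elsewhere, replicate 5 of that group was the highest for 14 and replicate 3 the lowest for 14.

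**Figure D5:**
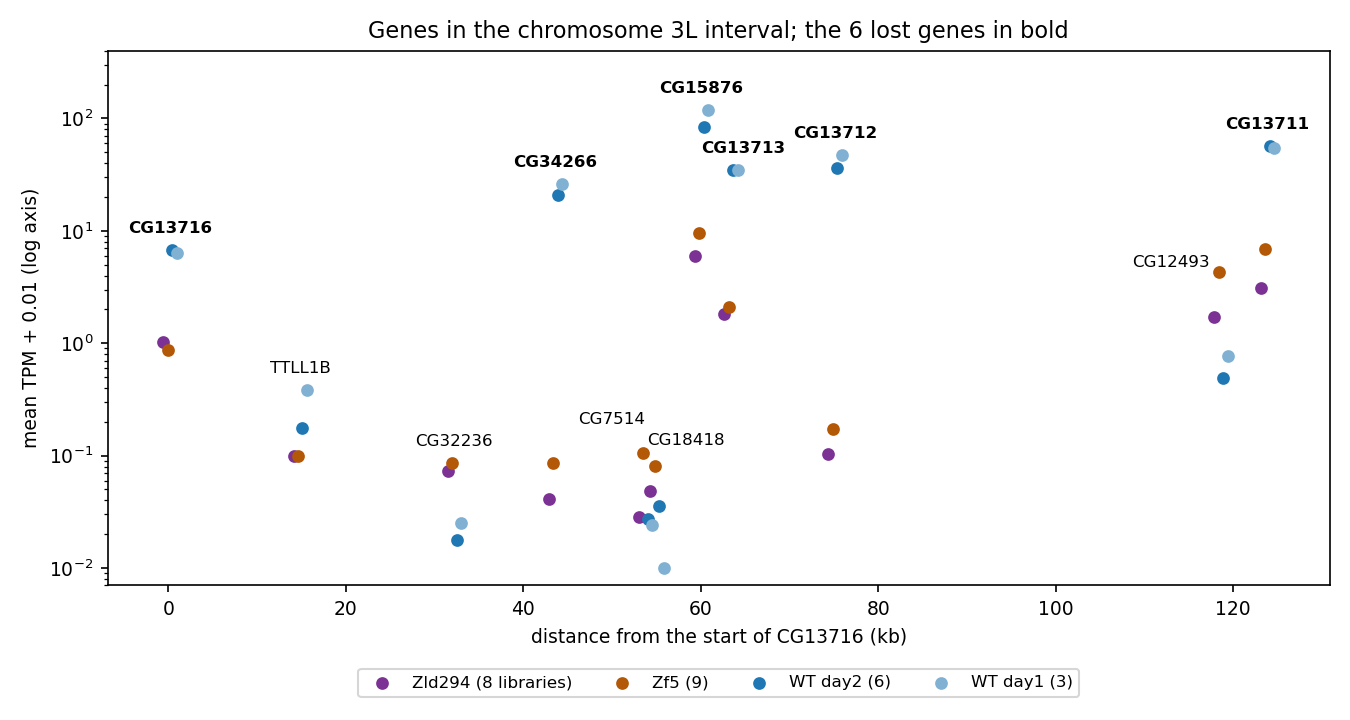
Group means (TPM plus 0.01, log axis) of the 11 listed genes inside the chromosome 3L interval against distance from the start of CG13716 in kb. For the 6 genes in bold the WT points lie above both mutant points, while of the other 5 only CG12493 exceeds 1 TPM in any group.

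Other members lie in pairs. CG14014 and CG18269 are divergent neighbours on chromosome 2L with 1003 bases between them, and both were below 1 TPM in every mutant library. Lam, the B-type lamin gene of the same neighbourhood, was at 525.5 TPM in Zld294 and 585 TPM in Zf5, against 479 TPM in WT day 2 and 564 TPM in WT day 1. Oscillin, also next to the pair, was at 0.881 TPM in Zld294 and 4.62 TPM in Zf5, against 1.89 TPM in WT day 2 and 3.70 TPM in WT day 1. The glutamate receptor gene GluRIIA, on the other side, was at 0.00597 TPM in Zld294 and 0.0530 TPM in Zf5, against 0.564 TPM in WT day 2 and 3.18 TPM in WT day 1. CG14013 and CG14017, between GluRIIA and the pair, were under 1 TPM in every group mean. CG14915 and CG43725 lie 3981 bases apart on 2L in the same orientation. CG43725 averaged 0.0252 TPM in Zld294 and 0.512 TPM in Zf5, against 13.8 TPM in WT day 2 and 79.9 TPM in WT day 1. By chromosome arm, 11 members are on 3L, 7 on 2L, 3 on 2R, 1 on X and 1 on 3R.

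The members are short and mostly without introns, which the rule did not use. Of the 23 genes, 16 (69.6%) have a single exon in every transcript, beside 9.47% of the 1627 other protein-coding CG genes with at least 5 TPM in both WT groups. At most 2 exons were annotated for 91.3% of members, beside 31.3% of those genes. The median coding length was 381 bases for members, beside 1197 bases for those genes. The span was under 2000 bases for 20 members, and the exceptions were CG5888, CG5455 and CG45087. Of named genes that met the same thresholds, 44 were protein-coding, 43.2% had a single exon and their median coding length was 1156.5 bases.

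There were 45 such genes with other symbols, of 4271 with at least 5 TPM in both WT groups. They include sisA and sc, which count X chromosomes in sex determination, scw, tld and tsg of the dorsal BMP pathway, and bnk, Z600 and halo of cellularization, cell cycle arrest and lipid droplet transport. They also hold Elba1 and Elba3, subunits of an insulator complex. Egfr, Msp300, Tep2 and Cyp6a13 are among them too, as is Pepck1. The values of Pepck1 are those of CG45087, so 1 measurement counts both among the members and among these 45 genes. The median share left in the 44 protein-coding ones was 1.14% in Zld294 and 8.65% in Zf5. For the 23 members it was 1.64% in Zld294 and 3.71% in Zf5. The same thresholds chose both sets, so these shares are a description.

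A list of 53 tested early zygotic genes, all with names, was set beside the members. The list and the WT libraries are shared by both comparisons. In Zld294 against WT 15 of the 53 were lower and 0 higher (8 Zld294 and 9 WT libraries), where 6.89% of the 8200 genes tested were lower and 8.05% higher. The median log2 difference was -0.90 for the list and 0.11 for all genes. In Zf5 against WT 12 of the 53 were lower and 0 higher, where 2.11% of genes were lower and 3.16% higher, and the median was 0.41 for the list and 0.02 for all genes. The Zf5 median rests on single libraries: it was 0.03 when replicate 4 of Zf5 day 2 was left out and 0.73 when replicate 1 of that group was. With all 26 libraries in 1 fit, 4 genes of the list were higher in Zf5 and 12 lower. Without replicates 1 and 3 of Zf5 day 2, 13 were higher and 13 lower, where 24.4% of all genes were higher and 13.2% lower. The largest falls in both were those of Elba1, bard, dunk and scw. These 4 are among the 45 named genes that met the thresholds of the rule, and the list was chosen with earlier results of these data known. Their tests are thus no independent support for the members. The BMP ligand gene scw averaged 0.261 ± 0.180 TPM in Zld294 and 0.895 ± 0.800 TPM in Zf5, against 139 ± 108 TPM in WT (SD, n = 8, 9 and 9). Its limma log2 difference from WT was -6.20 in Zld294 with adjusted p = 4.58e-07, and -5.71 in Zf5 with adjusted p = 4.51e-06.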

How the data were processed

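Values were TPM as deposited by the authors. The unit was read from the values, since each column sums to 1000000. The submitters' processing notes name kallisto, edgeR, limma and BDGP6, with no versions or roles. TPM keeps no depth, so intervals from counting are not possible, and each value depends on all others in its library.

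Members follow the rule stated in the report, on means of TPM per group. Members and gene lists were chosen with earlier results of these data known. Genes with at least 1 TPM in at least 3 of 26 libraries (8200) were fitted with limma 3.58.1 in R 4.3.3 (lmFit, eBayes with trend) on log2(TPM + 1), adjusted by Benjamini and Hochberg's method over all 8200 at 0.05. The procedure was tested on simulated data. Zf5 against WT had day as a covariate, and the other comparisons had none.

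Genes were named by WT level (the highest 12), by share left (the highest 4 per mutant), by their distance from the limit of the rule and, in the early list, by the 4 largest falls. Other members are named for position, annotation or library pattern, after their values were seen. Positions come from Ensembl release 115 (BDGP6.54). Alternatives were another pseudocount, no filter, median-ratio scaling, all libraries in 1 fit, a replicate block, other limits of the rule and each library left out in turn. Promoter and protein sequences were not used here.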

Additional observations from a re-analysis of the deposited data

Results flagged for a closer look

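In each group of 6 to 8 libraries, the highest and lowest value of each member were compared with the rest by Dixon's gap test, over 67 groups of values. A gap counted when it exceeded the 95% critical value. Chance passes that value in about 5% of groups when values are normally distributed. The gaps were taken on TPM itself, which was skewed to high values in many groups, so the chance rate is not known here. A gap counted in 17 groups, over 13 members and always for the highest library. This count is thus not read as an excess over chance.

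Replicate 5 of Zf5 day 2 stood apart for 6 genes. It held 13.1 TPM of CG13711, 0.445 TPM of CG13712, 6.0 TPM of CG13713, 3.25 TPM of CG13716 and 16.9 TPM of CG15876, all on the chromosome 3L interval, and 1.17 TPM of CG13000 on X. The next CG13716 value in that group was 0.153 TPM. Replicate 4 of Zf5 day 2 stood apart for CG15382 at 49.2 TPM, CG43184 at 16.1 TPM, CG43725 at 2.46 TPM and CG8960 at 1.80 TPM. Replicate 6 of that group did so for CG6885 at 2.81 TPM.

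In Zld294, replicate 7 held 0.0466 TPM of CG14915, which was at 0 in the others, and replicate 8 held 0.711 TPM of CG8960. In WT day 2, replicate 5 held 384 TPM of CG8960, 151 TPM of CG14915, 94.9 TPM of CG5888 and 64.2 TPM of CG43725. The cause was not tested in any of these libraries.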

How the results depend on the processing

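The number of members was 23 by the rule, 40 with a WT minimum of 2 TPM, and 17 to 27 with 1 library left out. Replicate 5 of WT day 2 decided 6 of them (CG42762, CG43725, CG45087, CG5888, CG7271 and CG9119), and group medians in place of means kept 16 of the 23. Without replicate 3 of WT day 2, members wholly below WT numbered 19 in Zld294 and 14 in Zf5. Of all genes tested, 2.66% in Zld294 and 0.671% in Zf5 were then so. That alternative, and leaving out replicates 1 and 3 of Zf5 day 2 together, were chosen after seeing the data. In the 3 comparisons in which members were tested, none was called under any alternative run, with an exception for Zld294 against Zf5. There, 4 were called without replicates 1 and 3 of Zf5 day 2 together. Of these, all but CG5888 had passed the filter through WT alone, and CG5888 did not meet the rule in that setting.

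Counts over all genes moved more. With all 26 libraries in 1 fit, limma called 931 genes for Zld294 against Zf5, 317 for WT day 2 against day 1, 3 for Zf5 day 2 against day 1, 667 for Zld294 against WT and 1613 for Zf5 against WT. With 1 library left out the counts were 256 to 2341 for Zld294 against Zf5, 150 to 1214 for the WT days, 955 to 1436 for Zld294 against WT and 283 to 894 for Zf5 against WT. Without replicates 1 and 3 of Zf5 day 2 together the counts were 4828 for Zld294 against Zf5, 3086 for Zf5 against WT, with 26 of the early list, and 0 for the Zf5 days. For Zld294 against Zf5 the highest counts were 2341 without replicate 1 and 1403 without replicate 3 of Zf5 day 2. The lower ones were 256, 278, 291, 300, 305 and 306 without Zld294 replicates 2, 4, 1, 3, 6 and 7, and 299 and 315 without replicate 1 of Zf5 day 1 and replicate 2 of day 2. For the WT days the count was 1214 without replicate 5 of day 2, 150 and 312 without replicates 1 and 2 of day 1, and 256, 292, 346, 366 and 369 without replicates 1, 6, 4, 3 and 2 of day 2. For Zf5 against WT it was 894 and 821 without replicates 1 and 3 of Zf5 day 2 and 283 without replicate 1 of WT day 1. The list median for Zld294 against WT ran from -1.05 to -0.53 with 1 library left out, with -0.53 without replicate 3 of WT day 1. The member median for the Zf5 days was -0.22, ran from -0.36 without replicate 3 to -0.05 without replicate 1 of Zf5 day 1, and was -0.60 with a pseudocount of 0.1 TPM. The cause was not tested.

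A replicate block gave 68 genes for Zld294 against Zf5, 0 for the WT days, 583 for Zld294 against WT and 266 for Zf5 against WT. Same-numbered libraries had deviations correlated from -0.752 to 0.709, with both signs. This shows no pairing by number, but libraries of 1 group differ widely, so the check cannot settle it. Median-ratio scaling changed the split of higher and lower genes to 184 and 234 for the WT days (379 and 206 as deposited), 421 and 671 for Zld294 against WT (660 and 565) and 187 and 203 for Zf5 against WT (259 and 173). It shifted the median of all genes by -0.14 for the WT days and by -0.12 for the Zf5 days.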

Other observations

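Some CG genes passed the limit in 1 mutant alone. There were 18 such genes in Zld294 and 4 in Zf5, chosen by the same values and so given with no test. CG10035 averaged 0.0298 TPM in Zld294 and 37.1 TPM in Zf5, against 26.1 TPM in WT day 2 and 131 TPM in WT day 1. CG32795 averaged 0.155 TPM in Zld294 and 21.4 TPM in Zf5, against 30.4 TPM in WT day 2 and 15.4 TPM in WT day 1. CG4440 averaged 0.720 TPM in Zld294 and 20.6 TPM in Zf5, against 17.8 TPM in WT day 2 and 66.4 TPM in WT day 1. Zf5 was thus near or above the smaller WT mean for these 3 genes, while Zld294 was not.

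The reverse was seen in CG32640, with 9.39 TPM in Zld294 and 0.0230 TPM in Zf5, against 30.8 TPM in WT day 2 and 6.37 TPM in WT day 1. CG7381 averaged 31.9 TPM in Zld294 and 3.88 TPM in Zf5, against 12.3 TPM in WT day 2 and 29.2 TPM in WT day 1. These genes were chosen after their values were seen, and the differences between the mutants were not tested for them.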
